A study of Mus musculus with 4 samples.

Results

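Respiratory complex I, the NADH dehydrogenase that feeds electrons into the mitochondrial chain, was examined through the nuclear genes of its subunits in interscapular brown adipose tissue (BAT). Members were all rows whose symbol was Nduf followed by a, b, c, s, v or ab and a number, which leaves out the Ndufaf assembly factors. This rule found 45 of 55387 deposited rows, and 40 of the 45 entered the test, which took genes whose mean FPKM exceeded 1 under either genotype label.

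The libraries came from 4 male mice aged 15 weeks on a C57BL/6 background. The 2 control mice carried floxed Sox4 alleles (Sox4f/f, labelled WT in the sample records) and the 2 Sox4-MKO littermates carried the same floxed alleles with Myf5-Cre, which is active in the lineage of brown adipocytes and of skeletal muscle. Each mouse gave 1 library of whole tissue, although the labels name adipocytes as the cell type. Values are FPKM, fragment numbers divided by transcript length and by the library's mapped total, so levels can be compared between genes on a per-length scale.

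Complex I consists of a matrix arm and a membrane arm. The matrix arm oxidizes NADH in its N module and reduces ubiquinone in its Q module, and the membrane arm pumps protons. Core subunits carry the flavin and iron-sulfur clusters or form the pumps, accessory subunits surround them, and the pumps themselves are encoded by mitochondrial DNA. Brown fat is rich in mitochondria, where electron transport drives the proton gradient that UCP1 turns into heat.

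Sox4, the targeted gene, did not separate the labels. Its FPKM was 1.98 in Sox4f/f mouse 1, 1.06 in Sox4f/f mouse 2, 0.981 in the library labelled Sox4-MKO 1 and 3.06 in the library labelled Sox4-MKO 2 (log2 fold change 0.20, SE 0.43, limma adjusted p = 0.843). SE stands for the standard error. All directions therefore follow the labels. Depth was estimated at 12100000 to 16200000 fragments per library, with a summed FPKM from 472062 to 578011. Skeletal muscle markers as a sum moved with the labels. The summed FPKM of 8 muscle markers was 167 and 621 in Sox4f/f against 12130 in the library labelled Sox4-MKO 1 and 2158 in the library labelled Sox4-MKO 2. Of the 8 muscle markers 6 were called higher, beside 7.95% of all tested genes. Myh4 overlapped between the labels, at 15 and 56.5 against 1165 and 55.2 FPKM. The summed level of 9 brown adipocyte markers was 8148 and 7917 against 4160 and 4787. Most of that sum came from Cox8b, Ucp1, Cidea and Cox7a1. Of the 9 markers 5 were called lower and 1 higher, beside 8.28% and 7.95% of all tested genes. Lhx8 (1.04 and 0.829 against 1.88 and 2.13 FPKM) and Zic1 (2.43 and 3.48 against 2.31 and 4.18 FPKM) did not follow the sum. A list of 5 general adipocyte markers summed to 12586 and 12106 against 10773 and 16057. No marker of these lists was at 0 in any library.

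All 40 tested members had a lower mean under the Sox4-MKO label. In limma on log2(FPKM + 1), with an unadjusted p under 0.05 as the limit, 23 of the 40 were lower and 0 were higher, beside 8.28% lower and 7.95% higher of all 12877 tested genes. Rescaling the libraries to a common sum without mitochondrially encoded genes and Ucp1 turned the split of all genes from 1066 lower and 1024 higher into 746 lower and 1322 higher, and 22 members were then lower, beside 5.79% of all genes. Both libraries labelled Sox4-MKO lay below both Sox4f/f libraries for 38 of the 40, beside 29.6% of all tested genes. The shares of all genes given here and below are not matched for level, and most members are highly expressed. With a limit of 5 FPKM, 22 of 39 members were called lower, beside 11.1% of all genes. With that limit 38 of the 39 did not overlap, beside 34.9% of all genes. After Benjamini-Hochberg adjustment over all tested genes no member was under 0.05, as for 0% of all genes, and the smallest adjusted p of a member was 0.205 (limma). A two-sided exact permutation test of 1 gene in 2 mice against 2 has a smallest possible p of 0.33.

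Members differed little among themselves. Their log2 fold changes (Sox4-MKO label minus Sox4f/f) ran from -0.65 to -0.13 with a median of -0.42 and an SD over genes of 0.12. The median of all tested genes was -0.05 and their SD 0.61. All tested genes reach down to a mean of 1 FPKM, and these SDs are not matched for level. Fewer brown adipocytes in the tissue and less subunit RNA per cell cannot be told apart in whole tissue. Calls depended on the libraries used. Without Sox4f/f mouse 1 or Sox4f/f mouse 2, 3 of the 40 were called lower, without the library labelled Sox4-MKO 1 there were 36, and without the library labelled Sox4-MKO 2 there were 14. In the same order the share of all tested genes called lower was 2.95%, 3.8%, 7.88% and 6.33%. Members share the same 4 libraries and are not replicates.

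**Figure D1:**
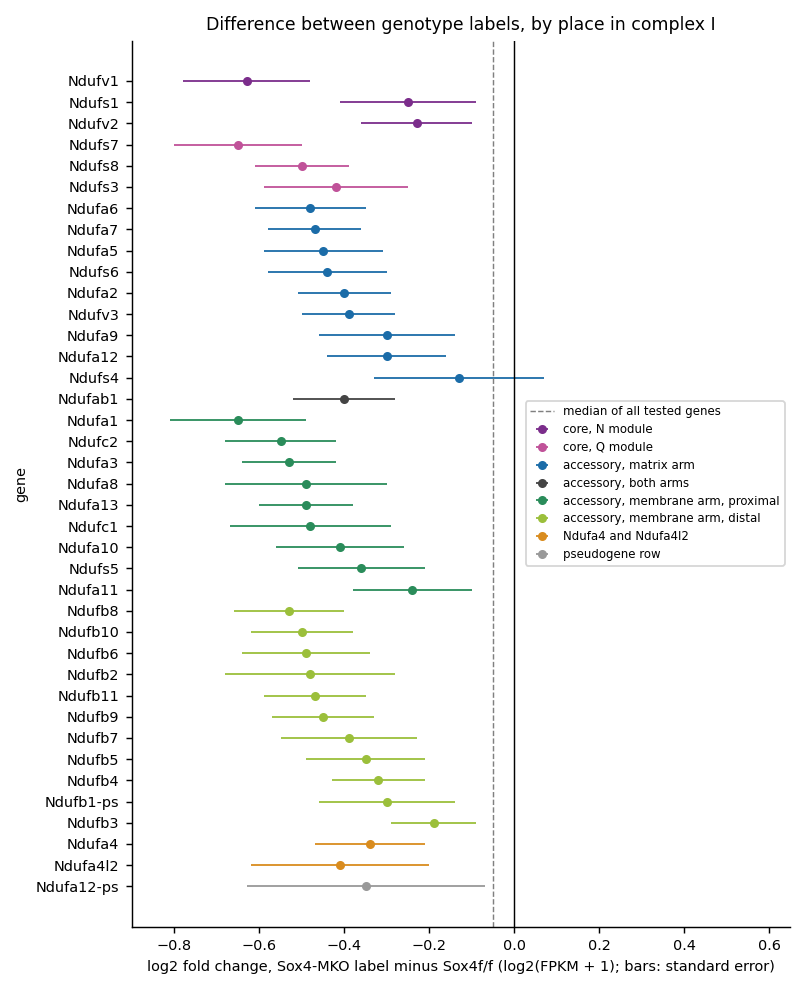
Log2 fold change of 39 tested members (x axis, Sox4-MKO label minus Sox4f/f, on log2(FPKM + 1)), with its standard error by limma as a bar, grouped by place in complex I; the dashed line is the median of all tested genes at -0.05. All 39 points lie below 0, from -0.65 for Ndufs7 and Ndufa1 to -0.13 for Ndufs4, whose bar crosses 0.

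The 3 nuclear core subunits of the N module differed in size. Ndufv1, which binds NADH and holds the flavin (GRCm38 chr19:4007384-4012806, minus strand, placed by symbol in GENCODE M21), had 437 and 490 FPKM under the Sox4f/f label versus 331 and 269 FPKM under the Sox4-MKO label. The mean under the Sox4-MKO label was 64.7% of the Sox4f/f mean of 464 ± 37.0 FPKM, with an SD of 43.9 FPKM (n = 2 each) and a log2 fold change of -0.63 (SE 0.15, limma adjusted p = 0.218). The groups did not overlap.
Ndufs1, which holds several iron-sulfur clusters, had 227 and 240 FPKM under the Sox4f/f label versus 222 and 173 FPKM under the Sox4-MKO label. Ndufv2, which holds another cluster, had 245 and 242 against 226 and 192 FPKM. Their log2 fold changes were -0.25 (SE 0.16) and -0.23 (SE 0.13), neither was called, and in both the library labelled Sox4-MKO 1 came close to the Sox4f/f values.
A ratio of genes within a library does not depend on how the library was scaled. For every Ndufs1 FPKM there were 1.93 and 2.04 of Ndufv1 in Sox4f/f and 1.49 and 1.55 under the other label, and the groups did not overlap. The ratio of Ndufv2 to Ndufs1 was 1.08 and 1.01 against 1.02 and 1.11, with overlap. These pairs were chosen after the values had been seen.

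Of the core subunits of the Q module, Ndufs7 and Ndufs8 were called lower. Ndufs7, which carries the cluster that passes electrons to ubiquinone (chr10:80249121-80256794, plus strand), had 657 and 690 FPKM under the Sox4f/f label versus 480 and 384 FPKM under the Sox4-MKO label. Its mean went from 674 ± 23.2 to 432 ± 67.6 FPKM (SD, n = 2 each), the most negative log2 fold change of the members at -0.65 (SE 0.15, limma adjusted p = 0.214). Leaving out each library in turn gave -0.81 to -0.49.
Ndufs8, an iron-sulfur subunit (chr19:3908863-3912774, minus strand), was tight within each label, at 316 and 319 FPKM under the Sox4f/f label versus 235 and 215 FPKM under the Sox4-MKO label. Its log2 fold change was -0.50 (SE 0.11, limma adjusted p = 0.214). Ndufs3, which helps form the matrix arm, had 350 and 376 FPKM against 311 and 236 FPKM. The library labelled Sox4-MKO 2 was the lower of its pair, and the gene was not called, at a log2 fold change of -0.42 (SE 0.17).

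Of the 9 accessory subunits of the matrix arm, 6 were called lower, beside 8.28% of all tested genes. The median log2 fold change of the 9 was -0.40. Ndufa6 had the most negative value, with 546 and 482 FPKM under the Sox4f/f label versus 389 and 350 FPKM under the Sox4-MKO label (log2 fold change -0.48, SE 0.13). Ndufs4, which stabilizes the N module (chr13:114287795-114388258, minus strand), had the smallest difference of all members.
It was the one intact gene whose groups overlapped, at 135 and 129 FPKM under the Sox4f/f label versus 144 and 101 FPKM under the Sox4-MKO label. Its log2 fold change of -0.13 (SE 0.20, limma adjusted p = 0.765) was 0.13 without the library labelled Sox4-MKO 2 and -0.39 without the library labelled Sox4-MKO 1, so its sign rested on a single mouse. Ndufa9 and Ndufa12, named after their values were seen, were also not called, each at -0.30. Ndufab1, the mitochondrial acyl carrier protein, which sits in both arms, had 359 and 361 FPKM against 290 and 255 FPKM and was called lower (log2 fold change -0.40, SE 0.12).

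Among the 9 accessory subunits of the proximal membrane arm, the part near the matrix arm, 6 were called lower, beside 8.28% of all tested genes. The median of the 9 was -0.49. Ndufa1, a small X-linked subunit needed for assembly (chrX:37187588-37191163, minus strand), had 673 and 546 FPKM under the Sox4f/f label versus 361 and 414 FPKM under the Sox4-MKO label, which did not overlap.
Its means were 610 ± 90.4 and 388 ± 36.8 FPKM (SD, n = 2 each), with a log2 fold change of -0.65 (SE 0.16, limma adjusted p = 0.220) that ran from -0.80 to -0.50 with each library left out. It was 1 of 4 members that were not lower in the library labelled Sox4-MKO 2 than in the library labelled Sox4-MKO 1, with Ndufa7, Ndufa4l2 and Ndufa12-ps. Ndufa3, named after its values were seen, had the smallest p of the members, at 357 and 360 FPKM against 250 and 245 FPKM (log2 fold change -0.53, SE 0.11, limma adjusted p = 0.205).
Ndufa11 had the smallest difference of this class, at 365 and 369 against 344 and 279 FPKM, and was not called.

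All 11 members of the distal membrane arm were lower without overlap, beside 29.6% of all tested genes. Of the 11, 6 were called lower, beside 8.28% of all tested genes, and the median of the 11 was -0.45. Ndufb8 (chr19:44548572-44555440, minus strand), whose protein is lost when the complex is unstable and which is often probed on blots for that reason, had 841 and 872 FPKM under the Sox4f/f label versus 641 and 551 FPKM under the Sox4-MKO label (log2 fold change -0.53, SE 0.13, limma adjusted p = 0.222). Ndufb9 had 939 and 892 against 703 and 641 FPKM, at -0.45 (SE 0.12).
Ndufb3 was at the other end, at 313 and 314 FPKM against 277 and 275 FPKM. It varied little between mice of a label, and its log2 fold change of -0.19 (SE 0.10) was not called. That SE draws on the variance shared over genes. Among the settings tried, Ndufb3 was called lower only with unmoderated variances, which rest on its own few values. The row Ndufb1-ps, which RefSeq lists as an older symbol of Ndufb1 and GENCODE M21 types as a lncRNA from a bidirectional promoter, was counted here by the RefSeq reading and had 74.6 and 80.7 against 71.1 and 55.7 FPKM.

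Ndufa4 and Ndufa4l2 carry subunit names but stand apart in function. Ndufa4, now placed in complex IV, had the highest level of all members, at 1394 and 1376 FPKM under the Sox4f/f label versus 1163 and 1026 FPKM under the Sox4-MKO label (log2 fold change -0.34, SE 0.13, or -0.09 after quantile normalization). Ndufa4l2, a paralogue known as a hypoxia-inducible gene, was near the bottom with 11.5 and 14.2 FPKM against 8 and 11 FPKM. It rested on an estimated 100 to 177 fragments per library and was not called (-0.41, SE 0.21).

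The study lists qPCR primers for the members Ndufa1, Ndufb8 and Ndufb9. Their primers are shown because they mark which stretch of each transcript that assay reads.
Ndufa1 forward: ATGTGGTTCGAGATTCTCCCT
Ndufa1 reverse: TGGTACTGAACACGAGCAACT
Ndufb8 forward: TTGCCGGGGTCATATCCTA
Ndufb8 reverse: AGCATCGGGTAGTCGCCATA
Ndufb9 forward: GGTACTTTGCTTGCTTGATGAGA
Ndufb9 reverse: TGGGAAGATATACGGCTGAGG
On GENCODE M21 transcripts the Ndufa1 pair spanned bases 74 to 204 of 419, the Ndufb8 pair bases 134 to 258 of 2142 and the Ndufb9 pair bases 195 to 331 of 704. The Ndufb8 pair matched 4 of 9 annotated transcripts, the Ndufb9 pair 1 of 2 and the Ndufa1 pair its only one, whereas an FPKM covers the gene as a whole.

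Levels of the tested members per transcript length ranged from 3.48 FPKM for Ndufa12-ps to 1385 FPKM for Ndufa4 (means of Sox4f/f). Most intact subunit genes lay closer together. Between Ndufa7, which ranked 7th at 521 FPKM, and Ndufs1, which ranked 34th at 233 FPKM, the order passed in small steps. Ndufb9 (916 FPKM), Ndufb8 (857 FPKM) and Ndufs7 (674 FPKM) followed Ndufa4, and each of the first 3 ranks stood above the next without overlap in Sox4f/f. Of the 39 neighbouring pairs in the order, 17 were separated in this way and the others overlapped. Ndufs4 (132 FPKM), Ndufb4 (78.0 FPKM) and Ndufb1-ps (77.6 FPKM) were the lowest of the complex I subunits. Under the other label the order was nearly the same (Spearman's rho of the mean FPKM 0.978 over 40 genes of the same libraries, which are not independent replicates). Ndufb3 shifted most, from rank 27 to rank 17, and Ndufv1 went from rank 10 to rank 15.

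**Figure D2:**
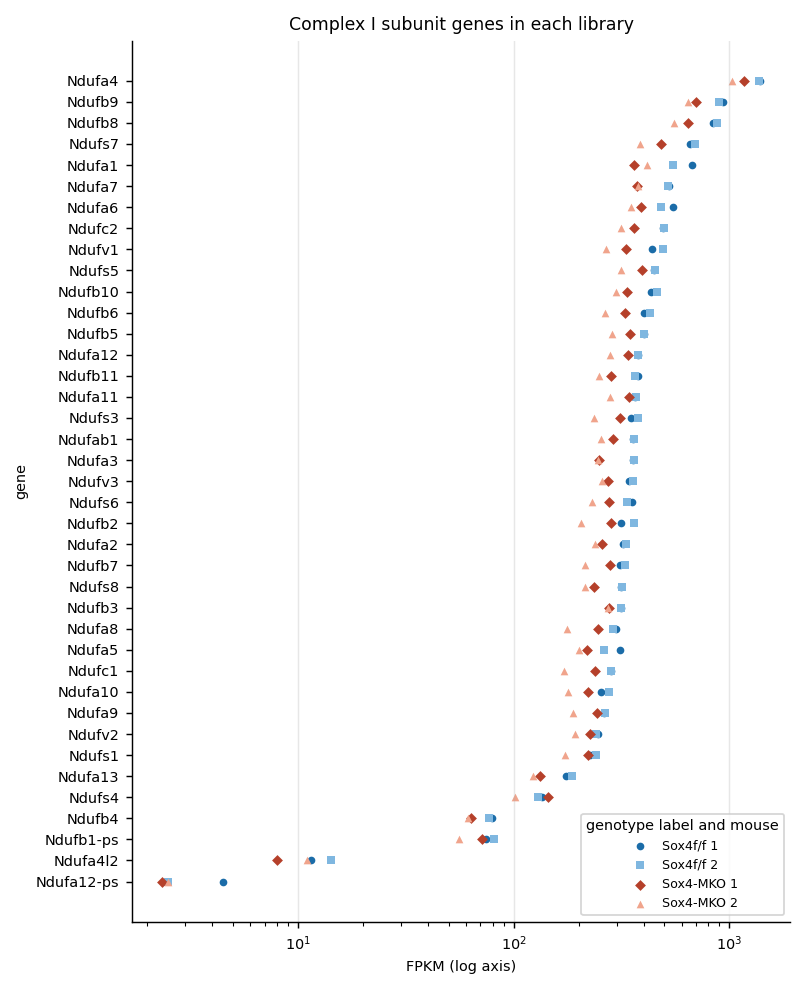
FPKM of 39 tested members in each of the 4 libraries (log axis), ordered by the mean of Sox4f/f. The blue Sox4f/f points lie to the right of both red Sox4-MKO points in 37 of 39 rows, Ndufs4 and Ndufa12-ps being the exceptions.

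In the deposited values the libraries labelled Sox4-MKO were not equally far from the controls. Over the 40 members the Sox4f/f libraries differed from their mean by a median of -0.01 and 0.01 on the log2(FPKM + 1) scale. The median difference from that mean was -0.31 in the library labelled Sox4-MKO 1 and -0.53 in the library labelled Sox4-MKO 2. Mouse 2 was lower than mouse 1 under the Sox4-MKO label for 36 of 40 members, with a median difference of -0.22, where that of all tested genes was -0.09. This difference depends on scaling. Rescaling to a common median multiplied Sox4-MKO 1 by 0.95 and Sox4-MKO 2 by 1.038. The factors for a common sum without mitochondrially encoded genes and Ucp1 were 0.977 and 1.078. Both rescalings bring the libraries of this label closer together. The members with their pseudogene rows summed to 15522 and 15563 FPKM in Sox4f/f, and to 12415 and 10668 FPKM in the other libraries.
As a share of all FPKM without mitochondrially encoded genes this was 3.42% and 3.47% against 2.76% and 2.62%. Muscle markers were highest in the library labelled Sox4-MKO 1, where members were the less reduced in the deposited values, and skeletal muscle expresses complex I too. Their part in the level of the members was not tested.

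**Figure D3:**
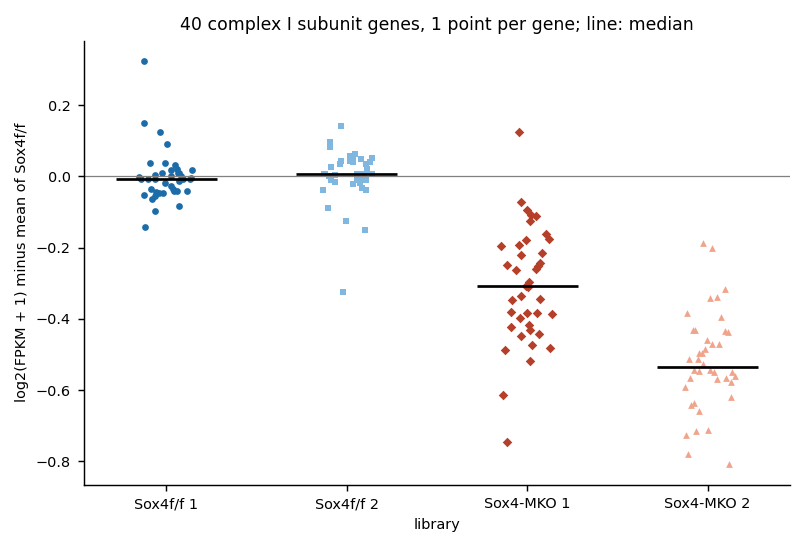
Difference of each of 40 members from the Sox4f/f mean in each library (y axis, log2(FPKM + 1)), 1 point per gene with the median as a line. Medians are -0.01 and 0.01 in Sox4f/f and -0.31 and -0.53 in the libraries labelled Sox4-MKO 1 and 2.

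**Figure D4:**
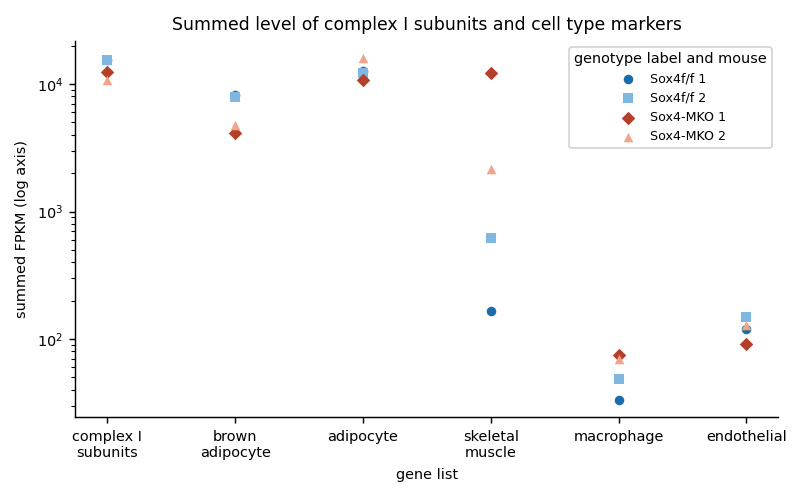
Summed FPKM (log axis) of the complex I subunit genes and of 5 cell type marker lists in each library. Subunits range from 10668 to 15563, brown adipocyte markers from 4160 to 8148, and muscle markers from 167 in Sox4f/f 1 to 12130 in the library labelled Sox4-MKO 1.

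The partners of these subunits were compared side by side. Of the 7 mitochondrially encoded subunits, mt-Nd1 had 25725 and 28229 FPKM under the Sox4f/f label versus 21256 and 22636 FPKM under the Sox4-MKO label, and mt-Nd2 had 21670 and 24381 against 15696 and 20977 FPKM. Their log2 fold changes of -0.30 (SE 0.17) and -0.34 (SE 0.22) were not called, and were 0.17 and 0.36 after quantile normalization. The low row mt-Nd3 had 26.9 and 30.5 against 16.6 and 26.2 FPKM.
Only Sox4f/f mouse 1 had values for mt-Nd5 (10928 FPKM) and mt-Nd6 (4759 FPKM), the remaining 3 libraries listing both at 0, and mt-Nd4 and mt-Nd4l were listed at 0 in all 4, so these 4 gave no usable comparison.
Among 18 complex I assembly factors, which build the complex and leave it, 15 had a negative log2 fold change (83.3%, beside 56% of all tested genes), with a median of -0.25. Of these factors 2 were called lower, Ndufaf3 and Foxred1, named after their values were seen. That share of 11.1% is near the 8.28% of all tested genes. The 45 tested nuclear subunits of complexes II to V had a median of -0.39, beside -0.42 for complex I. Of the 45, 23 were called lower (51.1%) and 3 higher, beside 8.28% and 7.95% of all tested genes. After quantile normalization these medians were -0.18 and -0.34, and that of all tested genes was -0.08. The 3 higher ones, also named after their values were seen, were Cox6a2, Atp5g1 and Atp5g3, of which Cox6a2, the heart and muscle form of its subunit, had 1.98 and 19.5 FPKM under the Sox4f/f label versus 255 and 72.1 FPKM under the Sox4-MKO label. No complex I subunit was called higher. The SD of the log2 fold changes over genes was 0.12 in complex I, 0.09 in complex II and 0.12 in complex III, where also none was called higher, and 1.22 in complex IV and 0.86 in complex V, which hold the 3 higher genes. No test of the difference between the lists was made.

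**Figure D5:**
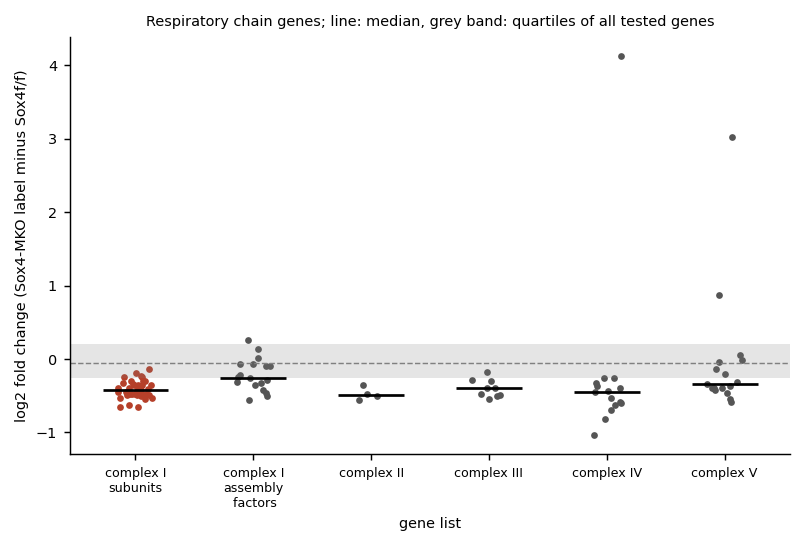
Log2 fold change (Sox4-MKO label minus Sox4f/f) of each gene in 6 lists, with the median of each list as a line, and the quartiles of all tested genes (-0.26 to 0.21) as a grey band. Complex I subunits lie between -0.65 and -0.13, while complex IV reaches 4.13 with Cox6a2 and complex V reaches 3.02 with Atp5g1.

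The promoters of the members were searched for 6 short motifs on both strands, from 250 bases before to 50 bases after each RefSeq start (GRCm38.p6). Of 40 tested members 34 had a window. Their windows were richer in GC than all windows (median 59.2% against 52.7%), and the shares below are not matched for this. AAGATGGCG, letters bound by YY1, stood in 5 of 34 members (14.7%), beside 1.64% of 27025 genes. All 5 lay on the gene strand between 23 and 36 bases after the start, and they are shown with the match in capitals because their place was so alike. The letters contain ATG, the triplet of a start codon. Whether the matches lie at the start codons of these genes was not tested.
Ndufs7, chr10:80249463-80249491, plus strand: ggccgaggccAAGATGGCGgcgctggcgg
Ndufs4, chr13:114388045-114388069, minus strand: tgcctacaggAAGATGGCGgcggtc
Ndufs6, chr13:73328433-73328459, minus strand: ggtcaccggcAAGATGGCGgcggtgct
Ndufa9, chr6:126849097-126849125, minus strand: attgtgggagAAGATGGCGgccgccgtcc
Ndufc1, chr3:51408915-51408943, minus strand: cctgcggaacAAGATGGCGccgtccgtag
They include both ends of the range of log2 fold changes, Ndufs7 at -0.65 and Ndufs4 at -0.13.
The core of the NRF1 site, GCATGCGC, stood in Ndufa6, Ndufa8 and, on both strands in overlapping places, Ndufa11 (8.82% of members, 3.05% of all genes). The ERR letters TNAAGGTCA stood in Ndufb4 (2.94% against 1.43%), and the ETS letters CCGGAAGT in Ndufs3 (2.94% against 4.31%).
SOX letters, AACAAAG, are shown because of the targeted gene. They stood on the other strand in Ndufb8 and Ndufc1 (5.88% of members, 6.68% of all genes), at -157 and -183 bases from the start.
Ndufb8, chr19:44555583-44555609, minus strand: taagcagtagCTTTGTTttctctcctt
Ndufc1, chr3:51409122-51409148, minus strand: tcttcgtaccCTTTGTTttattcacag
The core of the EBF palindrome, CCCNNGGG, stood in 5 members, Ndufa3, Ndufa8, Ndufa13, Ndufs3 and Ndufv3 (14.7% against 15.4%). EBF factors bind this palindrome. These matches describe letters in a window and do not show binding.

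GC content moved with the labels over all genes. The median log2 fold change of all tested genes went from 0.05 where the longest transcript had at most 42% GC to -0.17 above 58%. Over 39 members Spearman's rho between log2 fold change and GC content was -0.30, and -0.21 without the 2 genes farthest from the median GC. For the difference between the control mice, Sox4f/f 2 minus Sox4f/f 1, rho with GC content was 0.32, of like size and opposite sign. With transcript length rho was 0.28, and 0.48 after the correction described next. The members with lower GC content (40.3% to 51.3%, 19 genes) had a median of -0.40, and those with higher GC content (51.5% to 60.7%, 20 genes) had -0.43. After a loess correction for GC content and transcript length these medians were -0.47 and -0.48. With the mean FPKM in Sox4f/f rho was -0.42, and -0.36 over all 12680 genes with a GC value. The Sox4f/f values are also subtracted in the fold change, which by itself can make rho negative. The added 1 in log2(FPKM + 1) shrinks the fold changes of low genes, so these rho values do not show that higher genes fell more. These are descriptions across genes that share the same 4 libraries.

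Some members share sequence with other loci, which can move reads between rows. In the GENCODE M21 transcripts, over 10% of all 50-base stretches recurred in the sense direction in another gene for Ndufa12, Ndufb4, Ndufb9, Ndufs3 and Ndufs5. The share was under 1% for 25 of 39 members. Ndufa13, Ndufb5 and Ndufb6 overlapped the antisense strand of a neighbour (Tssk6, Mrpl47 and Smim27) over more than 10% of their stretches, and whether counting used the strand is not given in the sources used here.
The 5 rows that were not tested were Ndufa11b, Ndufb4c, Ndufs6b and Ndufab1-ps, annotated as processed pseudogenes, and Ndufs5-ps, whose symbol was not matched. Ndufab1-ps was the highest of these, at 0.671 and 0.748 FPKM under the Sox4f/f label versus 0.649 and 0.660 FPKM under the Sox4-MKO label. Ndufs5-ps and Ndufs6b were above 0 only in the library labelled Sox4-MKO 2, at 0.814 and 0.542 FPKM, and Ndufa11b and Ndufb4c were listed at 0 throughout. The pseudogene row Ndufa12-ps passed the limit with 4.47 and 2.49 FPKM under the Sox4f/f label versus 2.34 and 2.51 FPKM under the Sox4-MKO label, with overlap.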

How the data were processed

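RNA sequencing of BAT was deposited as 1 FPKM value per gene symbol and library. The submitters' processing notes name Cufflinks 2.1.1, Cuffdiff and mm10, and the annotation and aligner are not given in the sources used here. The methods describe TRIzol and a TruSeq library, the labels a column kit and a stranded one. Since the authors deposited FPKM and no counts, limma 3.58.1 (R 4.3.3) was fitted to log2(FPKM + 1) of all 12877 genes whose mean FPKM exceeded 1 under either genotype label, with genotype as the only term and a trended prior. Tests are two-sided, called means an unadjusted p under 0.05 as in the study's methods, and adjusted p-values (Benjamini-Hochberg) cover all tested genes. Fold changes understate the change of low genes. The code was tested on simulated data. Standard errors and p-values combine the spread between 2 mice per label with a variance shared over genes of like level. Fragments were estimated from the lowest FPKM of genes with 1 transcript of at least 1500 nt and are approximate. Coordinates are from GENCODE M21 (GRCm38), by symbol, with 43 of 45 members matched. Members, lists, motifs and named genes were chosen with earlier results of these data known. Named were core subunits, the members with the largest and smallest change in each class, untested members, those of the qPCR and those with other roles. Genes singled out beyond that are marked. The values of 1 member are not reported here, although it enters the counts, medians and sums. Marker lists for lymphoid, mast, Schwann, endothelial, macrophage and erythroid cells were also summed. Each library was left out in turn, the mouse number was added as a block, and values were rescaled by quantiles, to equal medians, or to an equal sum with mitochondrially encoded genes and Ucp1 removed. Other FPKM limits (0.1, 5, none), a pseudocount of 0.1, unmoderated variances and loess (span 0.5) on GC content and transcript length were also tried. Figures were drawn with matplotlib 3.10.9.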

Additional observations from a re-analysis of the deposited data

How the results depend on the processing

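Of the 40 tested members, Ndufs4 alone changed sign under any alternative that could test it, at 0.13 without the library labelled Sox4-MKO 2, and its range with each library left out was -0.39 to 0.13. Called lower were 23 of 40, 14 without moderation of the variance (beside 7.26% of all genes), and between 3 and 36 with each library left out, where the lone library of a label was assumed to vary like the others. The median of -0.42 ran from -0.53 to -0.31 with each library left out, from -0.47 to -0.34 under the other alternatives, and from 37 to 39 members did not overlap. For all tested genes that share was 23.2% to 34.9% under the settings with an FPKM limit, 8.55% with none, and 39.4% to 47.4% with a library left out, where a lone library makes non-overlap easier. Quantile normalization gave 18 calls (8.89% of all genes) and the common median 31 (9.66%). With no limit on FPKM most variances were 0, and the 31 calls and the 1709 genes under an adjusted 0.05 (limma), 21 members among them, are not used. Over all genes, calls lower numbered 380 to 1015 with each library left out, beside 1066. Whether mice of the same number form a pair is not given in the sources used here. The correlation of same-numbered deviations was -0.0122 over 12877 genes and -0.268 over the 40 members, which cannot settle it. With the mouse number as a replicate block 16 members were called (7.28% of all genes) and the median was -0.42. The depth leaves Ndufa4l2 with the fewest fragments of the intact genes.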

Other observations

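Marker lists of other cell types were also summed. The 5 macrophage markers summed to 33.0 and 48.8 FPKM under the Sox4f/f label versus 75.1 and 69.1 FPKM. Of these, 3 were called higher, beside 7.95% of all tested genes. The 3 mast cell markers summed to 8.35 and 8.06 against 31.4 and 24.8 FPKM, all called higher, beside the same 7.95% of all tested genes. Endothelial markers (119 and 148 against 91.6 and 129 FPKM), erythroid markers (747 and 1096 against 1371 and 918 FPKM), Schwann cell markers (40.4 and 18.6 against 63.6 and 46.4 FPKM) and lymphoid markers (3.86 and 1.95 against 1.21 and 5.19 FPKM) gave no calls among those tested, and the lymphoid marker Ms4a1 was at 0 in the library labelled Sox4-MKO 1. Their part in the level of the members was not tested.

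Mitochondrially encoded genes made up 21.6% and 17.7% of all FPKM in Sox4f/f and 9.29% and 13.6% in the libraries labelled Sox4-MKO, and the rows listed at 0 in some libraries enter that share.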
